A study of Mus musculus with 6 samples.

Results

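Guanylate-binding proteins (GBPs) and immunity-related GTPases (IRGs) are GTP-hydrolysing proteins whose genes are switched on by interferons. The 9 genes described here are the GBP genes Gbp2, Gbp3, Gbp6 and Gbp7 and the IRG genes Irgm1, Irgm2, Igtp, Iigp1 and Tgtp1. All probe sets whose platform annotation gives one of these symbols were taken, which made 13 of 45037 non-control probe sets. Of these, 12 were assigned to 1 gene, giving 8 of 18193 genes a probe set of their own. The remaining probe set was assigned jointly to Tgtp2 and Tgtp1, so no value is given for Tgtp1 alone.

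RNA was measured in the retina of BALB/c mice, an albino strain whose eyes are easily injured by strong light. The light damaged group held 3 arrays of mice that spent 1 week in darkness, then 6 h under white fluorescent light of 6000 lux, with retinas taken 24 h after the damage. The dark adapted group held 3 arrays of mice that also spent 1 week in darkness and were not exposed. The labels name no genotype, age or sex, and do not say whether a replicate is 1 animal or a pool, so each p-value reflects the spread among the 3 arrays of a group, which may be technical.

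The GBPs are dynamin-related proteins that assemble on membranes of vacuoles holding pathogens and on exposed bacteria. Among the IRGs, Iigp1 and Tgtp1 are effectors that attack such vacuoles, while Irgm1, Irgm2 and Igtp sit on the cell's own membranes and hold the effectors inactive there. Interferon gamma acts through dimers of STAT proteins that bind the GAS element (gamma-activated sequence), and type I interferons act chiefly through a complex holding STAT2 and IRF9 that binds the ISRE (interferon-stimulated response element). IRF1, itself made after interferon gamma, also binds ISRE-like sequences, so genes of this family can respond to either kind of interferon.

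The bases before the transcript start are shown for the members with an entry in the RefSeq promoter table (GRCm38.p6), so that the ISRE and GAS letters can be read beside the values. Both were found in 4 of these 7 members. The table held 7 of the 9 members, and Gbp6 and Iigp1 had no entry in it. Each stretch runs 5′ to 3′ on the gene's strand from base -120 to base 10, counted from the transcript start. Capitals mark matches to the ISRE letters GAAANNGAAA (TTTCNNTTTC on the other strand) and to the GAS letters TTCNNNGAA, which read the same on both strands. The IRG stretches lie at chr11:58199436-58199565 on the plus strand for Igtp, chr11:58214857-58214986 on the plus strand for Irgm2, chr11:48992237-48992366 on the minus strand for Tgtp1 and chr11:48871411-48871540 on the minus strand for Irgm1. The GBP stretches lie on the plus strand at chr3:142530216-142530345 for Gbp7, chr3:142559924-142560053 for Gbp3 and chr3:142620543-142620672 for Gbp2.
Igtp: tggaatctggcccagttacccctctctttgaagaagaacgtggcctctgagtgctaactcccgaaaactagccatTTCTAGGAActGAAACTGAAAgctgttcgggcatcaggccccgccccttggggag
Irgm2: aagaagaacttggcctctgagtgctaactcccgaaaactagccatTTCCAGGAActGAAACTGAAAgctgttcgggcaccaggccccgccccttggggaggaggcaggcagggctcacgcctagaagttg
Tgtp1: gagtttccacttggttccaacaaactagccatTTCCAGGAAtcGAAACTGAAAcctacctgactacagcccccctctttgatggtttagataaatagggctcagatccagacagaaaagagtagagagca
Irgm1: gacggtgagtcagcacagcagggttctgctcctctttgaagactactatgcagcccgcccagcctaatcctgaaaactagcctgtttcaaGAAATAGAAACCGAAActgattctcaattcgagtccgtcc
Gbp7: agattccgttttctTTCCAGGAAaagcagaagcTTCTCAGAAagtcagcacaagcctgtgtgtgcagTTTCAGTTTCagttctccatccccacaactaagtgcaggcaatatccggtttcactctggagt
Gbp3: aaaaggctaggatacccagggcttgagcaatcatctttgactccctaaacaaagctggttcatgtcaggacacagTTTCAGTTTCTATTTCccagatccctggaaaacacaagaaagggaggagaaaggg
Gbp2: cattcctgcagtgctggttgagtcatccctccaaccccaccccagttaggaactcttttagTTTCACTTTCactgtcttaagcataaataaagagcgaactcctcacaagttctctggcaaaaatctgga

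An ISRE match was found in the windows of 7 of the 7 members, each window running from 250 bases before to 50 bases after a transcript start. A second annotated start of Gbp3 had none in its window. Over all 32851 windows of this length in the table, 3.44% held an ISRE match, 8.3% a GAS match and 0.454% both. Counted by gene, as the members are, the shares of 27025 genes were 3.99%, 9.55% and 0.614%. The gene share of both includes genes with the matches in different windows (166 genes, against 149 windows with both). In the members with both, the matches lay in the same window. In Igtp, Irgm2 and Tgtp1 a GAS match ended 2 bases before the ISRE match. The Igtp and Irgm2 stretches are nearly the same sequence around these matches, and Tgtp1 shares a shorter part of it. These members are therefore not independent counts beside the shares of all genes. Gbp7 held 2 GAS matches farther upstream, the nearer one 25 bases before its ISRE match. Irgm1 and Gbp3 each held 2 overlapping ISRE matches and no GAS match, and Gbp2 held 1 ISRE match and no GAS match. A match describes the letters in these windows and does not show that a factor was bound.

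**Figure D1:**
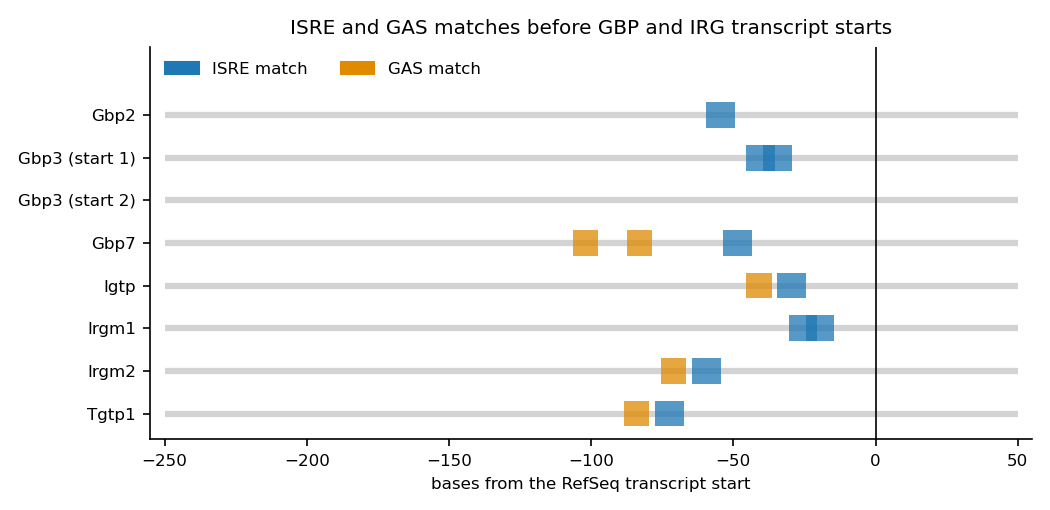
Positions of ISRE matches (blue) and GAS matches (orange) in the windows of the 7 members with a RefSeq promoter entry, in bases from the transcript start on the horizontal axis. Each grey bar is 1 window of 300 bases, and Gbp3 has 2 annotated starts, the second with no match.

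Light damaged retinas carried more RNA of 7 of the 8 measured GTPase genes, and none was lower. Levels are on the log2 scale of RMA (robust multi-array average, the authors' normalization), changes are light damaged minus dark adapted, and a gene was called at a limma adjusted p under 0.05 (Benjamini-Hochberg over all genes). Over all 18193 genes 1.74% were called higher. The median change of the 8 genes was 1.25, a 2.38-fold difference, where the median of all genes was 0.03. The 4 GBP genes had a median change of 0.95 and the 4 IRG genes one of 1.54. With the replicate number as a block, 8 of the 8 genes were called higher, where 6.73% of all genes were.

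By probe set, 13 of 13 changes were positive, and in 11 of 13 every light damaged value lay above every dark adapted value, against 8.99% of all probe sets. In a fit over all probe sets 8 of the 13 were called higher, where 0.913% of all probe sets were, and 11 with the replicate block, where 3.48% were. Within same-numbered arrays, all 39 differences of the 13 probe sets were positive, from 0.07 to 2.56. In the 11 probe sets without overlap this sign follows under any pairing, so only the other 2 could have differed. The pairing was taken from these data and not from a label. Light damaged replicate 2 gave the highest light damaged value in 8 of the 13 probe sets, and dark adapted replicate 1 the lowest dark adapted value in 8. For these counts and for the pair differences no share over all probe sets was computed. Neither can therefore be read as particular to the GTPases. The retinas were measured whole, so a change in the share of a cell type and a change of RNA per cell cannot be told apart.

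**Figure D2:**
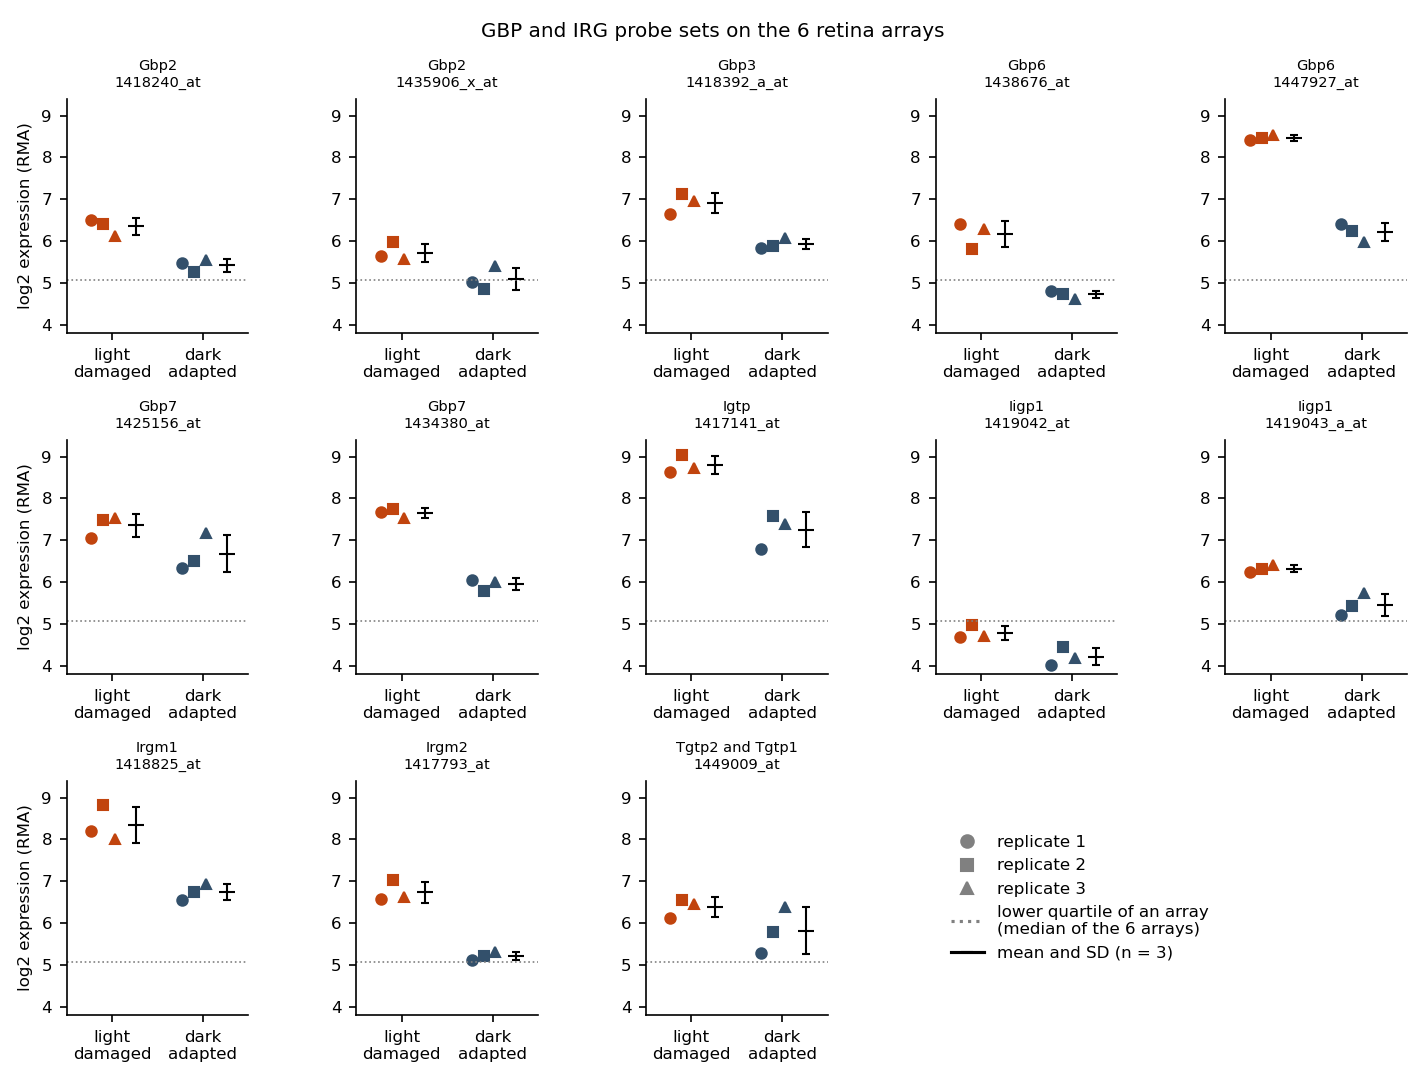
Log2 expression (RMA) of each of the 13 probe sets on the 3 light damaged arrays (left in each panel) and the 3 dark adapted arrays (right), with marker shape for the replicate number, crosses for the mean and SD (n = 3) and a dotted line at the lower quartile of an array. The groups overlap in 1 of the Gbp7 probe sets and in the probe set of Tgtp2 and Tgtp1.

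Irgm1, a regulatory IRG that also takes part in autophagy, had log2 levels of 8.20, 8.83 and 7.999 in light damaged retinas and 6.56, 6.74 and 6.94 in dark adapted retinas. The groups lay 1.06 apart at their nearest values. It rose 3.02-fold (log2 change 1.60 ± 0.22, SE, limma adjusted p = 0.00962). Irgm2, a further regulatory IRG, stood at 6.57, 7.02 and 6.62 in light damaged retinas and at 5.12, 5.21 and 5.30 in dark adapted retinas. Its dark adapted values were close together and near the lower quartile of the arrays (4.98 to 5.11). It rose 2.89-fold (1.53 ± 0.16, SE, limma adjusted p = 0.0026).

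Igtp, also called Irgm3 and the last of the regulatory IRGs, had levels of 8.63, 9.04 and 8.73 in light damaged retinas and 6.78, 7.58 and 7.40 in dark adapted retinas. Dark adapted replicate 1 was the low value of its group. The gene rose 2.92-fold (1.54 ± 0.22, SE, limma adjusted p = 0.0115). Leaving out light damaged replicate 2 or 3 ended the call, at limma adjusted p values of 0.0569 and 0.0694.

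Of the effector IRGs, 1 has a probe set of its own. Iigp1, which loosens the membrane of parasite vacuoles in mouse cells, had 6.24, 6.31 and 6.42 in light damaged retinas and 5.20, 5.42 and 5.73 in dark adapted retinas with its brighter probe set. The groups did not overlap, and the gene rose 1.83-fold (0.87 ± 0.16, SE, limma adjusted p = 0.0347). Among all probe sets the same values missed the threshold (adjusted p = 0.0585, and 0.00701 with the replicate block). Its dimmer probe set lay below the lower quartile on all 6 arrays and gave 0.57 ± 0.15 (SE, adjusted p = 0.214, and 0.0222 with the block). The Iigp1 call was kept only without dark adapted replicate 3, and the other 5 single omissions gave adjusted p between 0.059 and 0.177, the highest without light damaged replicate 3.

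The probe set read jointly from Tgtp2 and Tgtp1, near-identical effector IRG genes, had 6.12, 6.56 and 6.46 in light damaged retinas and 5.28, 5.79 and 6.39 in dark adapted retinas. Dark adapted replicate 3 lay inside the light damaged range, so the groups overlapped. The change of 0.56 ± 0.27 (SE) did not pass (limma adjusted p = 0.666 among all probe sets, and 0.115 with the block), and its 95% interval ran from -0.07 to 1.20.

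Gbp6 showed the largest change of the 8 genes. Its brighter probe set had 8.41, 8.46 and 8.55 in light damaged retinas and 6.41, 6.25 and 5.99 in dark adapted retinas. The groups stood 2.00 apart at their nearest values, and the gene rose by 2.26 ± 0.15 on the log2 scale (SE, limma adjusted p = 0.000757). The dimmer probe set had 6.40, 5.82 and 6.28 in light damaged retinas and 4.80, 4.74 and 4.62 in dark adapted retinas. It rose as well (1.44 ± 0.17, SE, limma adjusted p = 0.0106 among all probe sets), and its dark adapted values lay below the lower quartile of their arrays.

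The probe sets of Gbp7 disagreed in size. The brighter one, taken for the gene, had 7.05, 7.48 and 7.54 in light damaged retinas and 6.34, 6.51 and 7.17 in dark adapted retinas. Dark adapted replicate 3 lay above light damaged replicate 1, and the change of 0.68 ± 0.24 (SE) did not pass (limma adjusted p = 0.288, and 0.0116 with the replicate block). The other probe set had 7.66, 7.75 and 7.53 in light damaged retinas and 6.06, 5.78 and 6.01 in dark adapted retinas, with no overlap. It rose 3.24-fold (1.70 ± 0.13, SE, limma adjusted p = 0.00264 among all probe sets). The mean of the pair of probe sets rose by 1.19 (limma adjusted p = 0.00597), so the 1 gene not called here depended on which probe set stood for it.

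The difference between the changes of Gbp7's probe sets was -1.01, the brighter minus the other. For Gbp6 it was 0.81, for Iigp1 0.30 and for Gbp2 0.29. For Gbp7 and Gbp6 the per-array differences between probe sets did not overlap between the groups. In exact two-sided permutation tests over the 3 against 3 arrays, p was 0.1 for Gbp7 and Gbp6, the smallest this design allows, and 0.2 for Iigp1 and Gbp2, and 0.2 for each of the 4 genes after Benjamini-Hochberg adjustment.

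Gbp2 and Gbp3 rose by similar amounts. Gbp2 had 6.52, 6.41 and 6.12 in light damaged retinas and 5.47, 5.25 and 5.55 in dark adapted retinas (1.90-fold, 0.93 ± 0.15, SE, limma adjusted p = 0.0224). Its other probe set, of a kind that can match several transcripts, gave 0.63 ± 0.18 (SE, adjusted p = 0.245 among all probe sets), again without overlap. Gbp3 had 6.65, 7.12 and 6.95 in light damaged retinas and 5.84, 5.89 and 6.07 in dark adapted retinas (1.96-fold, 0.97 ± 0.16, SE, limma adjusted p = 0.0202). The call of Gbp2 was lost without light damaged replicate 1 (0.101), light damaged replicate 2 (0.11) or dark adapted replicate 2 (adjusted p = 0.11). That of Gbp3 was lost without light damaged replicate 2 (0.0939), light damaged replicate 3 (0.113) or dark adapted replicate 2 (adjusted p = 0.0975). The calls of Gbp6, Irgm1 and Irgm2 were kept whichever single array was left out.

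**Figure D3:**
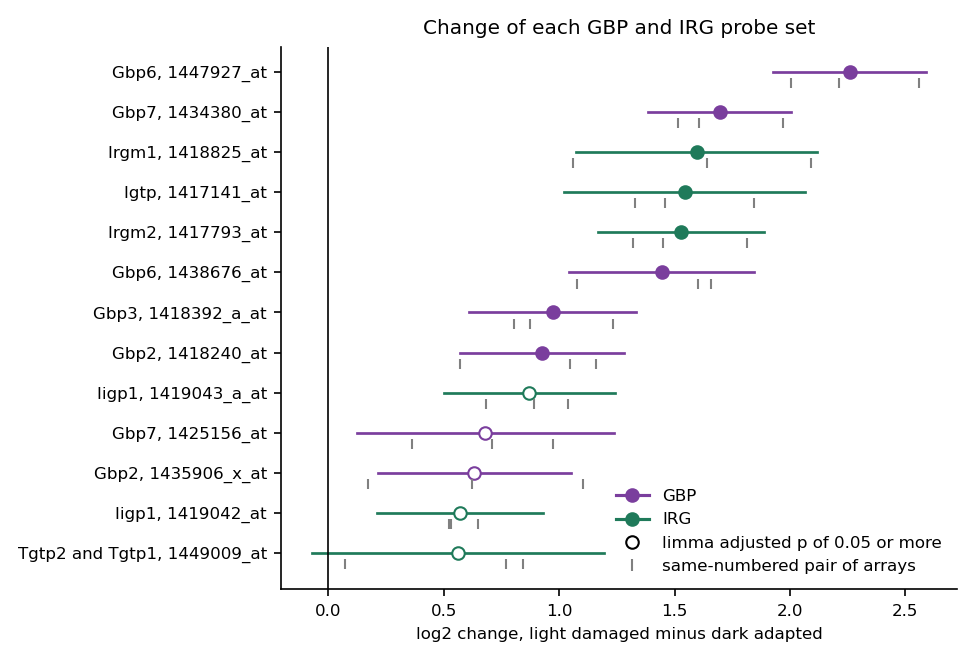
Log2 change (light damaged minus dark adapted) of each probe set with its 95% interval from limma over all probe sets, GBPs in purple and IRGs in green, with grey ticks for the 3 same-numbered pairs of arrays. The 8 filled points passed an adjusted p of 0.05, the changes run from 0.56 to 2.26, and only the interval of Tgtp2 and Tgtp1 reaches below 0.

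In the RefSeq gene order Gbp7, Gbp3, Gbp2b and Gbp2 are consecutive protein-coding genes on chromosome 3, Igtp and Irgm2 are neighbours on chromosome 11, and Gbp6 and Iigp1 lie on chromosomes 5 and 18. Gbp2b, the GBP gene between Gbp3 and Gbp2, had 7.50, 7.76 and 6.92 in light damaged retinas and 6.01, 6.40 and 6.63 in dark adapted retinas. Its change of 1.05 ± 0.24 (SE) missed the threshold (limma adjusted p = 0.0824) and passed it with the replicate block (adjusted p = 0.0125).

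Of 7 other GBP, IRG-related and Mx GTPase genes measured, 0 passed the limma test and the median change was 0.24. An unadjusted p under 0.05 was reached by 2 of the 7, and by 11% of all genes (2002 of 18193). With the block, Gbp2b and Mx2 were the 2 that passed. Ifi47, an IRG (Irgd), had 6.14, 6.42 and 6.31 in light damaged retinas and 5.64, 6.11 and 6.38 in dark adapted retinas (0.25, limma adjusted p = 0.794). Mx2, a dynamin-like antiviral GTPase, changed by 0.42 (limma adjusted p = 0.293, and 0.0397 with the block), without overlap. The IRG-related genes Gm4951 and Irgc1 changed by 0.24 and 0.03, and Irgc1 is known from the testis rather than from interferon responses. Gbp8 (-0.04) and Mx1 (0.09) lay below the lower quartile on all 6 arrays.

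Of 17 listed interferon ligand genes, 9 were measured and 8 had no value here. Of the 9, 0 passed the limma test, 0 had an unadjusted p under 0.05, and their changes ran from -0.24 to 0.10. Ifng, which encodes interferon gamma, had 4.16, 4.34 and 4.71 in light damaged retinas and 4.29, 4.30 and 4.52 in dark adapted retinas, below the lower quartile on all 6 arrays (0.03 ± 0.17, SE, limma adjusted p = 0.987). A small difference in a transcript this dim was not detectable on these arrays.

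Of 11 receptor, kinase and signal transducer genes of the interferon pathways, 2 rose and none fell, where 1.74% of all genes were called higher. The median change of the 11 was 0.17. Irf9, the DNA-binding part of the ISRE-binding complex, had 8.39, 8.27 and 8.46 in light damaged retinas and 6.55, 6.28 and 6.70 in dark adapted retinas (3.64-fold, limma adjusted p = 0.00103). Stat2, its partner, had 8.54, 8.79 and 8.65 in light damaged retinas and 7.27, 7.03 and 6.92 in dark adapted retinas (3.00-fold, limma adjusted p = 0.0015). The interferon gamma receptor genes Ifngr1 and Ifngr2 changed by 0.13 and 0.28 (limma adjusted p = 0.853 and 0.516).

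Of 23 genes known chiefly or strongly as interferon gamma targets, 6 rose and none fell, where 1.74% of all genes were called higher. The median change of the 23 was 0.13. The 5 largest rises were those of Tap1 (2.12), the peptide transporter of antigen presentation, Psmb8 (1.88) and Psmb10 (1.50), subunits of the immunoproteasome, Nlrc5 (1.50), the transactivator of MHC class I genes, and Cd274 (1.25), which encodes the immune checkpoint ligand PD-L1. The call of Cd274 did not survive every single omission (highest limma adjusted p 0.0883), and other probe sets of Tap1 and Psmb8 gave smaller changes (-0.22 to 0.68 for Tap1 and 0.22 for Psmb8). On the mean of its probe sets Tap1 missed the threshold (limma adjusted p = 0.0658). The smallest changes were those of Ido1, a tryptophan-degrading enzyme (0.03, limma adjusted p = 0.98), and of H2-Eb1, an MHC class II chain (-0.05, limma adjusted p = 0.967). The list also holds Ciita, the switch of MHC class II genes (0.13), and the chemokine genes Cxcl9 (-0.11) and Cxcl10 (0.12), which did not pass and are named after their values were seen. Irf1, named likewise, changed by 0.69 (limma adjusted p = 0.0732) and passed with the replicate block (adjusted p = 0.0046). With the block 9 of the 23 were called higher, where 6.73% of all genes were. On all 6 arrays 7 of the 23 genes lay below the array median.

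Of 27 genes known chiefly as type I interferon targets, 10 rose and none fell, where 1.74% of all genes were called higher. The median change of the 27 was 0.62. With the replicate block 15 were called higher, where 6.73% of all genes were. Oasl2 and the antiviral RNA-binding Ifit1 and Ifit2 rose by 2.19, 1.98 and 1.83, Usp18, a brake on the type I interferon receptor, by 1.81, and Bst2 (tetherin), which holds budding viruses at the cell surface, by 1.69 (limma adjusted p between 0.00103 and 0.00244). The oligoadenylate synthetase genes Oas2 and Oas3, sensors of double-stranded RNA, changed by -0.01 and -0.03 (limma adjusted p = 0.992 and 0.978). An ISRE match was present in 12 of 21 of these genes with a promoter entry and in 2 of 17 interferon gamma target genes. A GAS match was present in 5 of the 21 (23.8%) and in 5 of the 17 (29.4%), where 9.55% of all genes held one. Of 6 other GTPase genes with an entry, 4 held an ISRE match and 3 a GAS match. An ISRE match was present in 3.99% of all genes in the table and in 8.0% of the 250 genes called higher that had an entry. The changes of the GTPases were not tested against those of either list, and many of the listed genes answer to both kinds of interferon.

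For comparison, 14 of 16 genes of interleukin 6 family and STAT3 signalling rose and none fell, where 1.74% of all genes were called higher. The median change of the 16 was 1.98. The largest rises were those of Cebpd (4.27), Lcn2 (4.16), Osmr (3.04), Serpina3n (2.51) and Bcl3 (2.41), and the smallest changes those of Fgl2 (0.12) and Pim1 (0.38), which did not pass. Other probe sets of Cebpd (0.58) and Osmr (-0.12 to 1.84) changed less. None of 14 genes of this list with a promoter entry held an ISRE match, and 3 of the 14 (21.4%) held a GAS match.

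**Figure D4:**
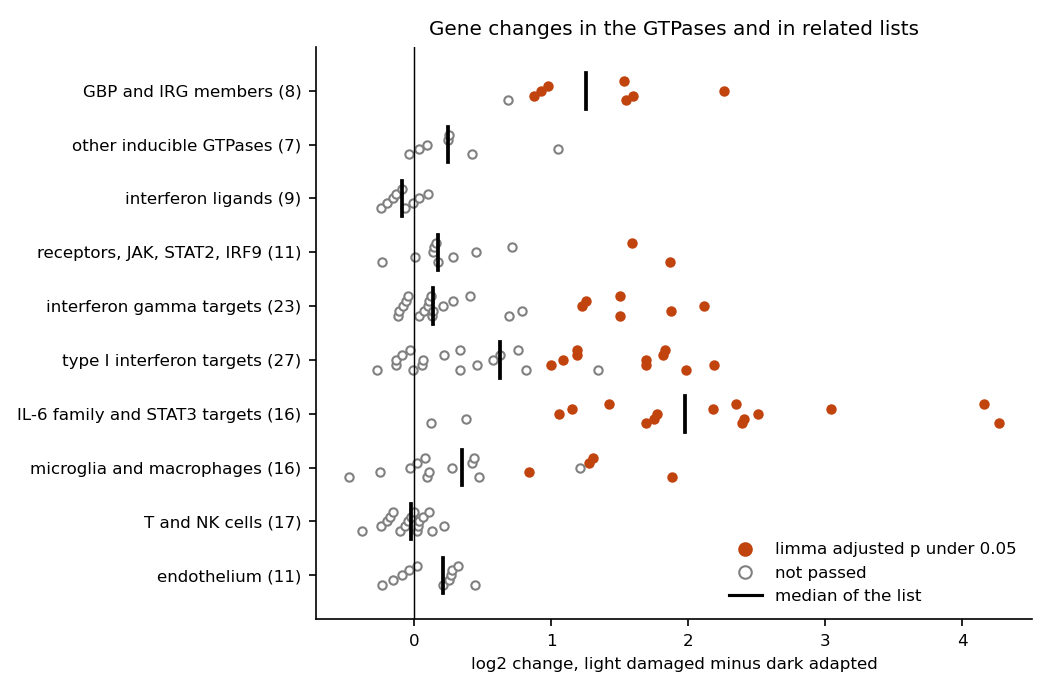
Log2 change (light damaged minus dark adapted) of each measured gene in the GTPases and in 9 related gene lists, with the number of genes in brackets, filled points for a limma adjusted p under 0.05 and black bars for list medians. The GTPase median is 1.25, that of the type I interferon targets 0.62 and that of the interferon gamma targets 0.13. The row of other inducible GTPases also holds Irgc1, known from the testis rather than from interferon responses.

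T cells and natural killer cells are the main makers of interferon gamma. Of 17 genes listed for them 0 passed the limma test and 1 had an unadjusted p under 0.05 (11% of all genes did). Not every listed gene is restricted to T and natural killer cells. The median change of the 17 genes was -0.03. Their mean log2 level ran from 5.82 to 5.97 on light damaged arrays and from 5.89 to 6.02 on dark adapted arrays, and 10 of the 17 lay below the array median on all 6 arrays. The T cell genes Cd3e and Cd8a changed by -0.07 and -0.18, and Ncr1 and Nkg7, of natural killer cells, by -0.0043 and -0.03. Gzma, with the smallest p of the list, changed by -0.38 (limma adjusted p = 0.451).

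Of 16 microglia and macrophage genes, 4 rose and none fell (median 0.35), where 1.74% of all genes were called higher. The list had 2 calls without light damaged replicate 2, light damaged replicate 3 or dark adapted replicate 2. The mean level of the 16 ran from 6.47 to 6.56 on light damaged and from 5.97 to 6.11 on dark adapted arrays. Cd68, a lysosomal protein of phagocytes, rose by 1.88 (limma adjusted p = 0.00474). With the replicate block 6 were called higher and 1 lower, where 6.73% and 2.13% of all genes were. The lower gene was P2ry12, a receptor of resting microglia (-0.48, adjusted p = 0.0199 with the block, named after its value was seen). Of 11 endothelial genes 0 passed and 1 had an unadjusted p under 0.05 (11% of all genes did). It was Kdr, a VEGF receptor gene (0.44, limma adjusted p = 0.191, and 0.0318 with the block). Of 10 Müller glia genes 1 rose, the intermediate filament gene Vim (1.67, limma adjusted p = 0.002), and none fell, where 1.74% of all genes were called higher. The median change of the 10 was 0.05, and 5 of the 10 changes were negative. With the block 4 were called higher and 2 lower, where 6.73% and 2.13% of all genes were. The lower genes were Glul, which encodes glutamine synthetase (-0.99), and Rlbp1, a retinoid-binding protein gene (-0.50), both named after their values were seen. The part of any of these cells in the GTPase changes was not tested.

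The retina's defining photoreceptor markers were high in both groups: the mean level of 14 rod and cone genes ran from 10.13 to 10.51 on light damaged arrays and from 10.70 to 11.27 on dark adapted arrays. Of these 14, 4 fell, where 0.269% of all genes were called lower, and 9 with the replicate block, where 2.13% were. The cone opsin gene Opn1sw fell by 1.62 (limma adjusted p = 0.00417). Without light damaged replicate 2, light damaged replicate 3 or dark adapted replicate 2 only 1 of the 14 was called.

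The median profile of the 8 GTPase genes over the 6 arrays, each gene taken minus its own mean, was set against the profile of every other gene. The 5 nearest genes, by root mean square distance over the 6 arrays, were Ankrd28 (0.101), Plin2 (0.129), Ccl12 (0.143), Parp14 (0.146) and Clic1 (0.15, all in log2 units), where the median of all other genes was 0.662. Ankrd28 encodes a subunit of protein phosphatase 6, Plin2 a coat protein of lipid droplets, Ccl12 a monocyte chemokine, Parp14 an ADP-ribosyltransferase and Clic1 an intracellular chloride channel protein. Their changes were 1.22, 1.39, 1.11, 1.19 and 1.51, in that order. As the genes were picked for nearness to this profile, changes close to those of the GTPases follow from the choice. The dark adapted values of Ccl12 lay below the lower quartile, and another probe set of Parp14 gave 0.14. Among the members the distance ran from 0.148 for Irgm2 to 0.549 for Gbp6, whose change was larger than the median profile.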

How the data were processed

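The deposited table holds log2 expression values of 45101 probe sets on 6 Affymetrix arrays, made by the authors with RMA per the submitters' processing notes, with no version stated in the sources used. The log2 scale was judged from their range (3.30 to 13.89). They were used as deposited. RMA equalises the arrays, so a change in total RNA would not be seen, and the number of arrays limits the precision. Array medians lay between 6.15 and 6.18, and no columns were identical.

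After 64 control probe sets were left out, 34945 had 1 gene in the platform annotation. Symbols were checked through Entrez identifiers against RefSeq genes (GRCm38.p6), which held 34741 of these probe sets. A gene with several probe sets was represented by the one brightest on average over the 6 arrays. Groups were compared with limma 3.58.1 in R 4.3.3 (lmFit, eBayes, Benjamini-Hochberg over all genes or all probe sets, threshold 0.05). The fit was tested on simulated data. The members, lists, tests and alternatives were chosen with earlier results of these data known.

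Genes were named by rule: the members, the measured other GTPases, interferon pathway genes past the threshold and 3 set ones, the 5 largest and 2 smallest changes per target list, the gene with the smallest p per cell type list with 4 lymphocyte genes, and the 5 most similar profiles. A gene of the rule without values is not reported here. Same-numbered arrays deviated together from their group means, with correlations of 0.731, 0.618 and 0.432 over probe sets, against -0.48 to 0.009 for others. Deviations within a group cancel out, so the lower values for others follow in part from the higher ones. Equal numbers were therefore treated as pairs, from these data and not from a label. The replicate block rests on this.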

Additional observations from a re-analysis of the deposited data

How the results depend on the processing

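All 8 GTPase changes stayed positive under every alternative run, between 0.36 and 2.35, and 84 of 104 gene and setting combinations kept their side of the threshold. The number of GTPase genes called, 7 as reported, was 2 (Gbp6 and Irgm2) when each array was centred on 7 reference genes. These were themselves higher by 0.32 on average, 1 of them, Rplp0, with a call (1.20, limma adjusted p = 0.00441). That centring moved the median change of all genes to -0.29 and of the GTPases to 0.93, as it takes 1 constant per array from every gene, and 4 of their probe sets were called, against 8 as reported. With 1 array left out, 3 to 7 GTPase genes and 3 to 6 of their probe sets were called, the fewest genes without light damaged replicate 2 and the fewest probe sets without light damaged replicate 3. Over all genes 365 were called (316 higher and 49 lower), 1613 with the replicate block (1225 and 388), and 151 to 417 with 1 array left out. Quantile normalization again gave 325 higher and 161 lower, and reference gene centring 138 and 257. The replicate block changed no call of a GTPase gene but that of Gbp7. It also changed those of Gbp2b, Mx2, Kdr, Irf1, P2ry12, Glul and Rlbp1, and of 2 Iigp1 probe sets and 1 Gbp7 probe set among all probe sets, and no other call of a gene named in the text. In the microglia list 4 genes were called higher as reported, and 6 higher and 1 lower with the block. In the Müller glia list 1 was called higher as reported, and 4 higher and 2 lower with the block. Dim probe sets, such as those of Ifng and the second one of Iigp1, limit what can be measured.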
